A study of Papio anubis with 25 samples.

Results

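The genes described here encode 8 transcription factors of the exocrine and endocrine pancreas: PTF1A, RBPJL, BHLHA15 (also called MIST1), NR5A2, GATA4, PDX1, NKX2-2 and NEUROD1. They were taken by symbol from the 21287 genes of the deposited abundance table, and all 8 were found. Bulk RNA sequencing had been made of flash-frozen tissue from 5 olive baboons (Papio anubis), 4 female and 1 male, with 1 library per animal from each of 5 tissues: pancreas, liver, and the left parotid, submandibular and sublingual glands. The series was designed to compare salivary glands with pancreas, and pancreas with liver, within the same animals. No treatment, strain or age is given in the sources used here, and each RNA sample came from 3 sections of 30 µm, so a library holds a small piece of its organ.

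Acinar cells make up most of the pancreas and fill their granules with digestive enzymes. PTF1A binds DNA together with an E protein, such as those encoded by TCF3, TCF4 and TCF12, and with RBPJ or its relative RBPJL, and this PTF1 complex drives the enzyme genes. BHLHA15 builds up the secretory machinery of serous cells in several organs and of plasma cells, NR5A2 is a nuclear receptor of acinar cells and hepatocytes, and GATA4 is a zinc finger factor of endodermal organs. PDX1 is needed to form the whole pancreas and later acts mainly in the insulin-producing beta cells of the islets, and NKX2-2 and NEUROD1 specify and maintain islet endocrine cells.

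The values are TPM, transcript abundances corrected for transcript length and scaled to the same total in every library, so levels of different genes can be set side by side. The acinar and hepatocyte markers followed the tissue labels. Pancreas libraries summed to 66936 to 135850 TPM over 7 acinar markers against 120 to 1927 TPM elsewhere, and liver libraries to 92220 to 113892 TPM over 11 hepatocyte markers against at most 1700 TPM. In the glands 6 libraries stood apart, with over 1000 TPM of skeletal muscle, adipocyte, lymphocyte or stratified mucosa markers. These were parotid 2 (adipocyte markers), parotid 5 (lymphocyte markers), submandibular 5 (adipocyte markers), sublingual 1 and 4 (stratified mucosa markers) and sublingual 2 (skeletal muscle markers), where the number is that of the baboon. Acinar pancreas and hepatocyte markers were not part of that rule. Submandibular 2 (1927 TPM of acinar markers), sublingual 3 (1617 TPM acinar, 1700 TPM hepatocyte) and sublingual 5 (1063 TPM hepatocyte) are therefore not among the 6. Salivary secretory markers ranged widely in each gland, from 2049 to 20690 TPM in parotid, 2204 to 70584 TPM in submandibular and 1451 to 324994 TPM in sublingual. The lowest library of each gland lay within the liver range of 950 to 4439 TPM, and pancreas held 1476 to 3885 TPM. In tissue pieces of mixed cells, fewer cells of a type and less RNA per cell cannot be told apart.

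**Figure D1:**
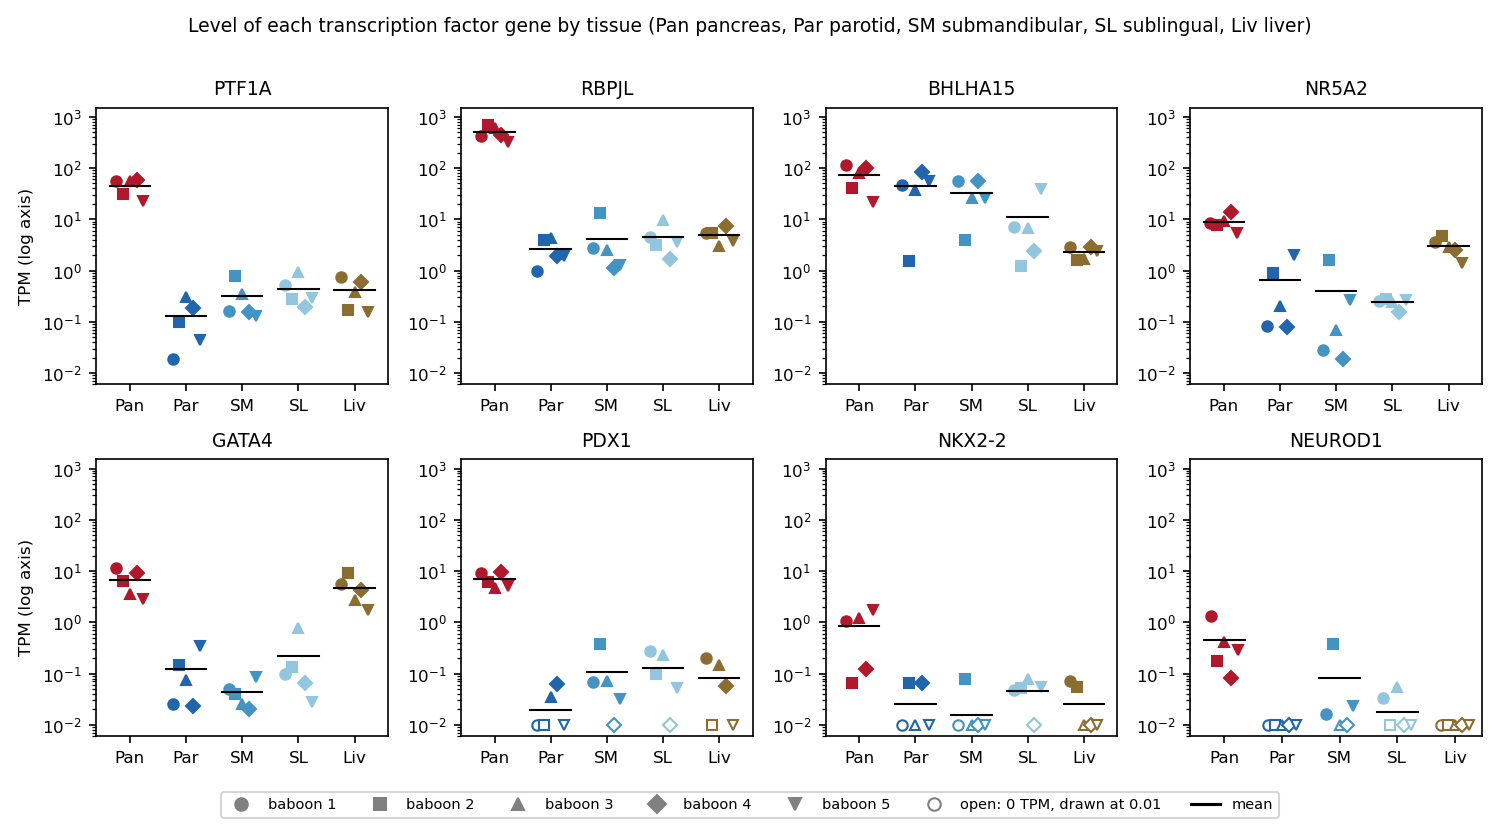
Level of each gene in TPM (log axis) in the 25 libraries, grouped by tissue, with 1 symbol shape per baboon, a line at the group mean and open symbols at 0.01 for libraries listed at 0. PTF1A, RBPJL, NR5A2 and PDX1 are higher in every pancreas library than in all 20 others, BHLHA15 extends into the glands, and GATA4 in liver overlaps its pancreas range.

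Of the 8 genes, 4 (PTF1A, RBPJL, NR5A2 and PDX1) were higher in every pancreas library than in all 20 others, which held for 0.877% of the 20524 genes above 0 in some library. Differences between tissues were tested with limma on log2(TPM + 1), and a difference was called where its adjusted p was below 0.05 and its size at least 1 on that scale. By that rule 5 of the 8 were higher in pancreas than in parotid, where 2.4% of the 14991 genes tested were, 5 than in submandibular gland (2.81%), 6 than in sublingual gland (2.49%) and 5 than in liver (2.86%). None of the 8 was lower in pancreas, as 1.41%, 1.27%, 6.97% and 14.6% of genes were. In the model were 6 of the 8, and PTF1A and PDX1 entered only through their pancreas level, so the counts describe the genes and are no test of the group. BHLHA15 was higher in parotid and in submandibular gland than in liver (2.84% and 2.61% of genes tested), 0 were higher in sublingual gland than in liver (5.93%), and NR5A2 and GATA4 were lower in each gland than in liver (10.9%, 13.9% and 9.52% of genes were higher in liver). None was called between glands, where 0%, 0.113% and 0.0667% of genes were.

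PTF1A and RBPJL, the DNA-binding subunits particular to the acinar PTF1 complex, were high in pancreas and far lower in the other 4 tissues. PTF1A was at 56.8, 30.6, 56.7, 59.6 and 23.0 TPM in the pancreas of baboons 1 to 5 (mean 45.3 ± 17.2, SD, n = 5). Its highest level in the other 20 libraries was 0.922 TPM, in sublingual 3, and the means were 0.130 ± 0.117 TPM in parotid, 0.313 ± 0.274 in submandibular, 0.441 ± 0.294 in sublingual and 0.410 ± 0.263 in liver (SD, n = 5 each). No library outside the pancreas therefore came near the lowest pancreas library. On the log2(TPM + 1) scale, which understates the change of low genes, PTF1A was higher in pancreas by 5.27 (SE 0.28) than in parotid, 5.07 than in submandibular, 4.93 than in sublingual gland and 4.96 than in liver (limma, adjusted p from 2.65e-12 to 1.38e-10, higher in 5 of 5 animals each time).

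RBPJL, which takes the place of RBPJ in the complex of mature acinar cells, was the most abundant of the 8 genes. It reached 422, 699, 592, 441 and 327 TPM in the pancreas of baboons 1 to 5 (496 ± 148, SD, n = 5) and ranked 154th of 21287 genes there by mean level. All other libraries were between 0.991 and 13.1 TPM, with the highest value in submandibular 2 and a mean in liver of 5.01 ± 1.71 TPM. These lower levels were in the middle of the scale, as the means lay above 52.0% (parotid) to 67.9% (liver) of genes. The difference in log2(TPM + 1) was 7.16 (SE 0.44) against parotid, 6.94 against submandibular, 6.60 against sublingual gland and 6.37 against liver (limma, adjusted p from 4.08e-11 to 3.28e-10, 5 of 5 animals). Leaving out the 6 gland libraries that stood apart gave 7.18, 6.88 and 5.88 for the 3 glands, and the corresponding PTF1A values were 5.41, 5.15 and 4.62.

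Relative to RBPJ, which most cells express for Notch signalling, RBPJL was in large excess in pancreas and not in the other 4 tissues. The RBPJL level was 85.9, 90.0, 115, 85.5 and 45.7 times the RBPJ level in the pancreas of baboons 1 to 5. In the other libraries the ratio lay between 0.117 and 1.60 (median 0.527), and RBPJ was above RBPJL in 16 of 20. The ratio of RBPJL to PTF1A was less even: 7.43, 22.9, 10.4, 7.40 and 14.2 in pancreas, and baboon 2 had the highest RBPJL level with the second lowest PTF1A level.

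The general partners of the complex did not show this pattern. Of the 4 listed (TCF3, TCF4, TCF12 and RBPJ), TCF12 was not used here and 0 of the other 3 passed limma in any comparison of pancreas with another tissue. At an unadjusted p under 0.05, 1 of 3 passed against each gland and 0 against liver. That gene was TCF4, lower in pancreas by -1.49, -1.59 and -1.20 than in parotid, submandibular and sublingual gland. After TMM scaling TCF4 was called lower in pancreas than in parotid and submandibular gland, as 377 and 435 of 14342 genes were. Pancreas levels were low and even, with 2.37 ± 0.36 TPM of TCF3, 2.29 ± 0.86 TPM of TCF4 and 6.03 ± 1.33 TPM of RBPJ (SD, n = 5). In the glands these genes varied widely between animals: RBPJ ranged from 1.88 to 58.3 TPM in the submandibular group.

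The acinar enzyme and granule genes, the known targets of the PTF1 complex, gave a second view of the low levels outside the pancreas. Of 22 listed, 14 were used here, and all 14 were higher in pancreas than in each other tissue, as 2.4 to 2.86% of all genes tested were. CLPS, which encodes the pancreatic colipase, differed by 7.75, 7.53, 6.89 and 6.76 in log2(TPM + 1) against parotid, submandibular, sublingual gland and liver, and the carboxypeptidase gene CPA1 by 7.76, 7.52, 6.99 and 6.91. In each library outside the pancreas, every gene was then written as a percent of its level in the same animal's pancreas. The median over the 14 enzyme genes lay between 0.111% (parotid 1) and 2.33% (submandibular 2), with a median of 0.638% over the 20 libraries. PTF1A was at 0.0325 to 2.55% and RBPJL at 0.235 to 1.88% of the pancreas level. Single enzyme genes spread more widely, in liver 4 from 0.61 to 16.8%. Divided by the median enzyme share of the same library, the RBPJL share had a median of 0.989 (range 0.468 to 2.12). The PTF1A share had a median of 0.912 (0.269 to 2.36), so both genes lay within 4 times of the enzyme median in all 20 libraries. In parotid the PTF1A ratio was 0.269 to 0.735 (median 0.325), so PTF1A was under the enzyme median in each parotid library. PDX1 gave a ratio between 0 and 5.31. For BHLHA15 the same ratio was 188 at the median in parotid, 104 in submandibular, 4.70 in sublingual gland and 3.37 in liver. In liver, NR5A2 was at 17.3 to 76.1 times and GATA4 at 42.5 to 181 times the enzyme share. In parotid, submandibular and sublingual gland the median ratio was 8.69, 1.67 and 3.38 for NR5A2 and 2.04, 0.934 and 1.83 for GATA4. Carry-over of RNA between tissues or libraries was not tested.

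**Figure D2:**
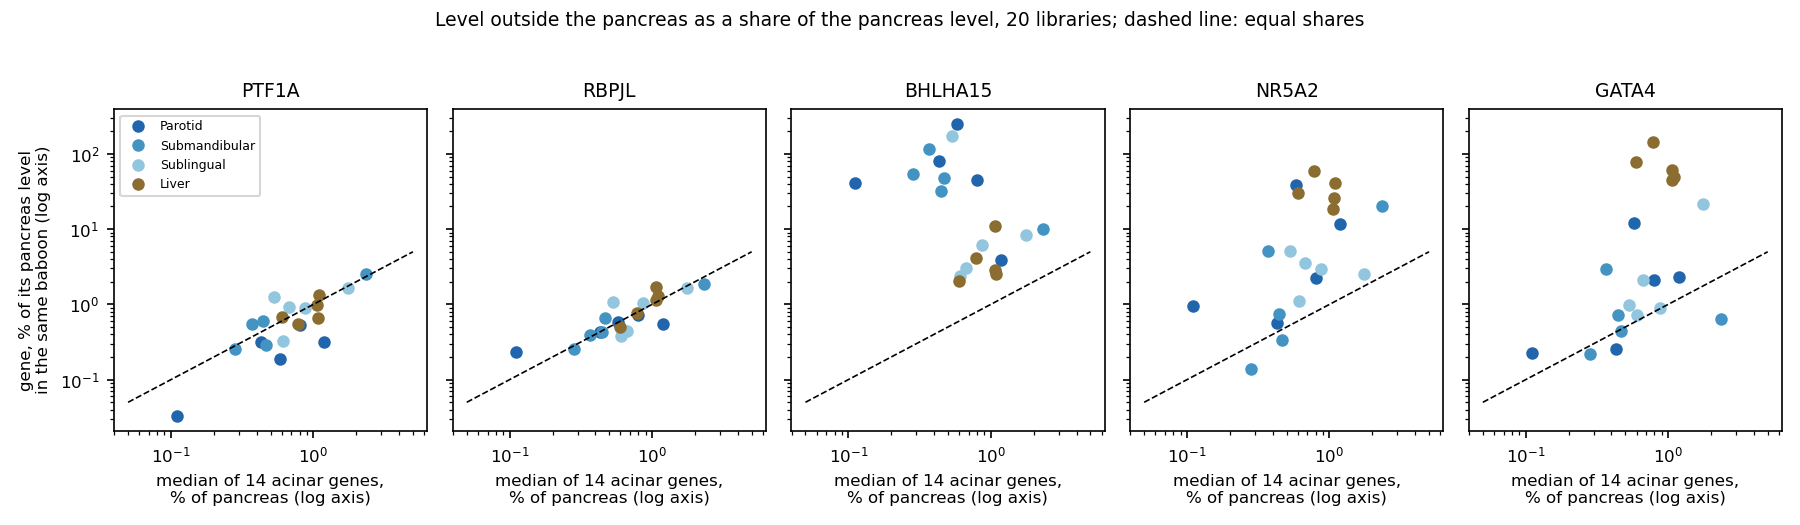
Level of PTF1A, RBPJL, BHLHA15, NR5A2 and GATA4 as a percent of the level in the pancreas of the same baboon (vertical, log axis) against the median percent over 14 acinar enzyme genes (horizontal, log axis) in the 20 libraries outside the pancreas; the dashed line marks equal percents. PTF1A and RBPJL lie near the line, PTF1A under it in all 5 parotid libraries, whereas BHLHA15 lies above it in all 20 libraries. NR5A2 and GATA4 lie above it in liver and sublingual gland, where the lowest GATA4 point is almost on the line. NR5A2 also lies above it in parotid, as GATA4 does except in parotid 4.

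NR5A2 was shared between pancreas and liver and was low in the glands. It was at 8.60, 7.79, 9.35, 13.8 and 5.32 TPM in the pancreas of baboons 1 to 5 (8.97 ± 3.08) and at 3.53, 4.64, 2.84, 2.53 and 1.38 TPM in liver (2.98 ± 1.21, SD, n = 5). The liver and pancreas ranges did not overlap. Most gland libraries were below 0.3 TPM, and the exceptions were parotid 2 (0.899 TPM), parotid 5 (2.02 TPM) and submandibular 2 (1.58 TPM). Those 3 libraries were also among the 5 gland libraries with less than 10 TPM of AQP5, the water channel gene of salivary acinar cells, and the part of their cell make-up in these values was not tested.

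NR5A2 was higher in pancreas by 2.66 (SE 0.34) in log2(TPM + 1) than in parotid, 2.89 than in submandibular and 2.96 than in sublingual gland (limma, adjusted p = 9.06e-06, 2.5e-06 and 1.78e-06). Against liver the difference was 1.33 (adjusted p = 0.0066, 5 of 5 animals). That call was lost without baboon 3 (1.30, adjusted p = 0.0567), without baboon 4 (1.14, adjusted p = 0.0629) and with a pseudocount of 0.1 (1.59, adjusted p = 0.0916). The glands were lower than liver by -1.33, -1.56 and -1.63 for parotid, submandibular and sublingual (adjusted p = 0.0077, 0.00174 and 0.00125), although NR5A2 in parotid 5 was above the liver level of the same animal.

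GATA4 was as high in some livers as in pancreas. Its pancreas levels were 11.3, 6.38, 3.53, 9.30 and 2.87 TPM in baboons 1 to 5 (6.67 ± 3.61), and its liver levels were 5.59, 9.04, 2.75, 4.19 and 1.73 TPM (4.66 ± 2.85, SD, n = 5). Of the liver libraries, 3 were at or above the lowest pancreas library, and the pancreas was higher in 4 of 5 animals. The difference of 0.44 (95% interval -0.24 to 1.13, adjusted p = 0.415) did not pass, but it did after TMM scaling (1.01, adjusted p = 0.00479) and after median-of-ratios scaling (1.04, adjusted p = 0.00396).

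In the glands GATA4 was between 0.0206 and 0.349 TPM, apart from 0.767 TPM in sublingual 3. It was higher in pancreas by 2.64 (SE 0.33), 2.74 and 2.54 than in parotid, submandibular and sublingual gland (limma, adjusted p = 7.07e-06, 3.8e-06 and 1.19e-05). Liver was above the 3 glands by similar amounts, as GATA4 was lower in parotid by -2.20, in submandibular by -2.29 and in sublingual gland by -2.10 (adjusted p = 2.35e-05, 1.19e-05 and 4.52e-05), in 5 of 5 animals each time. Sublingual 3 also had 1617 TPM of acinar markers and 523 TPM of islet markers, the most of any sublingual library. The part of those cells in its GATA4 level was not tested.

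The other factors known from acinar or secretory cells divided in the same way between pancreas and glands, but less so between pancreas and liver. Of 8 listed genes, 5 were higher in pancreas than in parotid, 4 than in submandibular and 5 than in sublingual gland, and none was lower. Of all genes tested, 2.4%, 2.81% and 2.49% were higher in pancreas in these comparisons. Against liver 1 was higher and 3 were lower, as 2.86% and 14.6% of genes tested were. After TMM scaling 7 of the 8 were higher than in each gland, where 6.18%, 6.09% and 7.11% of 14342 genes tested were. FOXA2, a forkhead factor of endodermal organs, was at 17.3 ± 2.49 TPM in pancreas and 27.1 ± 7.91 TPM in liver, and at most 1.15 TPM in any gland library. Its pancreas level was higher than in the glands by 3.91, 3.93 and 3.59 in log2(TPM + 1), and its difference from liver did not pass. FOXA3 followed with 8.63 ± 3.24 TPM in pancreas and 18.5 ± 10.4 TPM in liver. NR0B2, a nuclear receptor known as a target of NR5A2, was higher in pancreas than in the glands by 2.84, 2.83 and 2.71 and was lower than in liver by -2.76 (adjusted p = 5.16e-07), with means of 8.65 TPM in pancreas and 62.4 TPM in liver. HNF4A, known for its part in hepatocytes, was also lower in pancreas than in liver. XBP1, the factor that expands the endoplasmic reticulum, was at 155 ± 46.8 TPM in pancreas, 134 ± 49.4 TPM in liver and means of 62.7 to 96.6 TPM in the glands. It passed in no comparison, but was higher in pancreas than in each gland after TMM scaling. CREB3L1, also tied to secretory capacity, was the gene higher in pancreas than in liver (1.59, adjusted p = 0.0286). That call was lost without baboon 1, 3 or 4 (adjusted p from 0.0771 to 0.144).

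BHLHA15 was the one gene of the 8 with high levels in salivary glands. It was at 115, 40.3, 81.6, 102 and 22.2 TPM in the pancreas of baboons 1 to 5 (72.2 ± 39.7) and at 47.0, 1.55, 37.2, 82.3 and 55.4 TPM in parotid (44.7 ± 29.4). Submandibular glands had 55.8, 4.03, 26.1, 54.8 and 25.6 TPM (33.3 ± 22.0) and sublingual glands 7.08, 1.23, 6.75, 2.45 and 38.5 TPM (11.2 ± 15.5). Liver was low and even, at 2.93, 1.64, 1.64, 2.93 and 2.42 TPM (2.31 ± 0.646, SD, n = 5 in each tissue). Of the 20 other libraries 9, all from glands, were at or above the lowest pancreas library, and baboon 5 had more BHLHA15 in each of its glands than in its pancreas.

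The order of the means was pancreas, parotid, submandibular, sublingual, liver, and no neighbours in that order passed the test over all genes. Pancreas was above parotid by 1.08 (95% interval -0.27 to 2.44, adjusted p = 0.356), parotid above submandibular by 0.19 (-1.17 to 1.54, adjusted p = 1), submandibular above sublingual by 1.85 (0.49 to 3.2, adjusted p = 0.261) and sublingual above liver by 1.14 (-0.22 to 2.50, adjusted p = 0.273). The interval of the submandibular and sublingual difference, which is not adjusted for the number of genes, leaves out 0. The sign of the parotid and submandibular difference turned with scaling, to -0.067 with TMM and -0.079 with median-of-ratios, and without baboon 5 (-0.037). Between parotid and submandibular gland limma called 0 of 14991 genes, with 254 at an unadjusted p under 0.05 and 1 called after either scaling.

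Among tissues farther apart in the order, the difference passed limma in some pairs only. It did not pass between pancreas and submandibular gland (1.27, adjusted p = 0.463) or between parotid and sublingual gland (2.03, adjusted p = 0.249). BHLHA15 was higher in pancreas than in liver by 4.26 (SE 0.66, adjusted p = 2.64e-05, 5 of 5 animals), in parotid than in liver by 3.17 (adjusted p = 0.00111, 4 of 5) and in submandibular gland than in liver by 2.99 (adjusted p = 0.00187, 5 of 5). Pancreas exceeded sublingual gland by 3.12 (95% interval 1.76 to 4.47, adjusted p = 0.00387, 4 of 5 animals). The last call was lost without baboon 1 (2.94, adjusted p = 0.0533) and without the 6 gland libraries that stood apart (1.65, adjusted p = 0.125), where 2 sublingual libraries remain. Without those 6 libraries the sublingual glands were above liver (2.61, adjusted p = 0.0172). Without baboon 2, BHLHA15 also passed between parotid and sublingual (2.49, adjusted p = 0.0415) and between submandibular and sublingual gland (2.02, adjusted p = 0.0394).

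The 4 gland libraries with the least BHLHA15 were all low in AQP5. In the 10 gland libraries with at least 10 TPM of AQP5 (40.5 to 226 TPM), BHLHA15 lay between 6.75 and 82.3 TPM with a median of 37.9. In the 5 with less (2.25 to 5.40 TPM), which were parotid 2 and 5, submandibular 2 and sublingual 2 and 4, it lay between 1.23 and 55.4 TPM with a median of 2.45. The limit of 10 TPM was chosen after the values were seen. The 2 levels did not always go together: sublingual 1 and 3 had 7.08 and 6.75 TPM of BHLHA15 with 40.5 and 68.9 TPM of AQP5, and parotid 5 had 55.4 TPM of BHLHA15 with 3.64 TPM of AQP5. Parotid 5 also held 3117 TPM over 6 plasma cell markers, the second highest sum of the 15 gland libraries, with 390 TPM of DERL3, 61.5 TPM of TNFRSF17 and 275 TPM of XBP1. The highest plasma cell sum, 9125 TPM, was in sublingual 5, which had the highest BHLHA15 level of its group, the highest AQP5 level of all and 324994 TPM of salivary markers. Parotid 4, with the highest gland level of BHLHA15, had 89.8 TPM of plasma cell markers, below the 188 TPM of the lowest liver library. Pancreas held 205 to 261 TPM of these markers and liver 188 to 310 TPM. How far acinar and plasma cells each contributed to the gland levels was not tested.

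**Figure D3:**
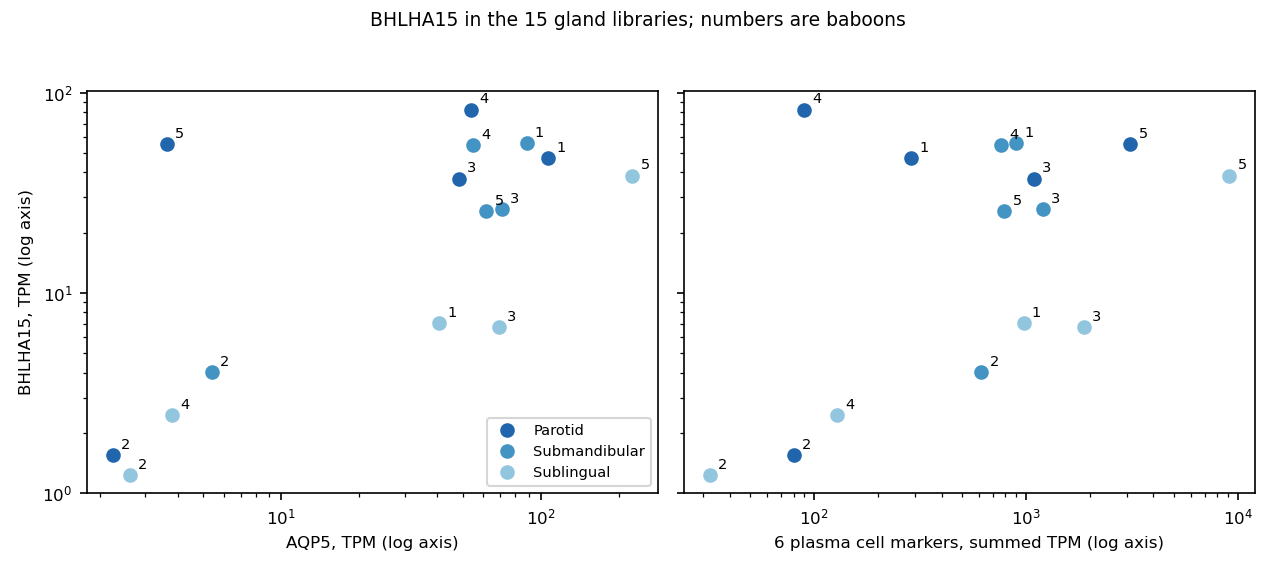
BHLHA15 level in TPM (log axis) in the 15 gland libraries against AQP5 in TPM (left, log axis) and against the summed level of 6 plasma cell markers in TPM (right, log axis), with the baboon number beside each point and color by gland. The 5 libraries with under 10 TPM of AQP5 have 1.23 to 55.4 TPM of BHLHA15, and parotid 5 is the high point among them.

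Genes reported to depend on BHLHA15 in secretory cells were partly shared with it. Of 7 listed, 6 were used here, and 3 were higher in pancreas than in each of the other 4 tissues: GJB1, RAB26 and TMED6 against every gland, and RAB3D, RAB26 and TMED6 against liver. The share of all genes tested that was higher in pancreas was 2.4 to 2.86%. TMED6, a cargo protein of the early secretory pathway, was at 143 ± 12.1 TPM in pancreas and at most 8.84 TPM in any other library, so it did not follow BHLHA15 into the glands (differences of 5.6, 5.52 and 5.51 against parotid, submandibular and sublingual gland, and 5.15 against liver). RAB26, a small GTPase of secretory granules, was at 127 ± 28.7 TPM in pancreas, 32.6 ± 27.4 TPM in parotid, 25.5 ± 14.2 TPM in submandibular and 5.65 ± 4.60 TPM in sublingual gland, the same order as BHLHA15, but liver had 42.8 ± 30.1 TPM. Its call against parotid was lost when any of baboons 1, 2, 4 or 5 was left out (adjusted p from 0.0557 to 0.0746), without the 6 gland libraries that stood apart (1.70, adjusted p = 0.169) and without those low in AQP5 (1.44, adjusted p = 0.110). The call against submandibular gland was lost without baboon 1, 2 or 4 (adjusted p from 0.0554 to 0.0731) and that against liver without baboon 1, 4 or 5 (0.0642 to 0.139). GJB1, a gap junction gene, was at 72.8 ± 32.3 TPM in pancreas and 192 ± 94.1 TPM in liver, and its call against submandibular gland was lost without baboon 1, 2, 3 or 4 (adjusted p from 0.0813 to 0.239). Its call against sublingual gland (2.62) was lost without baboon 1 (adjusted p = 0.0538) and without the 6 gland libraries that stood apart (1.20, adjusted p = 0.175). COPZ2, a coat protein gene of Golgi vesicles, was at 34.7 ± 5.89 TPM in pancreas and passed in no comparison. The calcium pump gene ATP2C2 was lower in pancreas than in sublingual gland (-1.15, adjusted p = 0.0454), a call that was lost after TMM scaling (-0.75, adjusted p = 0.0968) and in most other alternatives.

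PDX1 had the highest level of the 3 islet factors among the 8 genes and was above 1 TPM in pancreas only. It was at 9.11, 6.14, 4.58, 9.78 and 5.12 TPM in the pancreas of baboons 1 to 5 (6.95 ± 2.36, SD, n = 5). In the other 20 libraries it was listed at 0 in 7 and reached at most 0.375 TPM, in submandibular 2. The difference was 2.91 (SE 0.22) against parotid, 2.80 against submandibular, 2.77 against sublingual gland and 2.83 against liver (limma, adjusted p from 4.3e-10 to 4.92e-09, 5 of 5 animals).

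NKX2-2 and NEUROD1 were much lower and more uneven. NKX2-2 was at 1.06, 0.0647, 1.21, 0.121 and 1.71 TPM in pancreas (0.834 ± 0.718), against at most 0.0787 TPM in the other libraries, 11 of which were listed at 0. NEUROD1 was at 1.31, 0.178, 0.415, 0.0822 and 0.287 TPM in pancreas (0.455 ± 0.495). It was listed at 0 in all parotid and liver libraries and in 15 of the 20 libraries outside the pancreas, where its highest level was 0.376 TPM in submandibular 2, above 3 of the 5 pancreas libraries. Both genes averaged below 1 TPM in every tissue and did not enter the main model. In a model without that filter, NKX2-2 was higher in pancreas by 0.74 (SE 0.17), 0.75, 0.71 and 0.74 than in parotid, submandibular, sublingual gland and liver (adjusted p = 0.0161, 0.0138, 0.0175 and 0.00428), below the difference of 1 required for a call. In that model 1.72%, 1.97%, 1.72% and 1.97% of 20524 genes were called higher in pancreas, NKX2-2 and NEUROD1 not among them. NEUROD1 was higher than in sublingual gland by 0.46 (adjusted p = 0.0437), with a difference of 0.38 from submandibular gland (adjusted p = 0.162). With a pseudocount of 0.1 in place of 1, NKX2-2 passed in all 4 comparisons, at 2.37, 2.49, 2.13 and 2.38 (adjusted p from 0.00157 to 0.0112), and NEUROD1 against submandibular (1.54, adjusted p = 0.0319) and sublingual gland (1.89, adjusted p = 0.00675). The size of the NEUROD1 difference from parotid and liver, where it is listed at 0, is set by the pseudocount. In that model 2.26%, 2.74%, 2.41% and 3.14% of genes were called higher in pancreas.

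**Figure D4:**
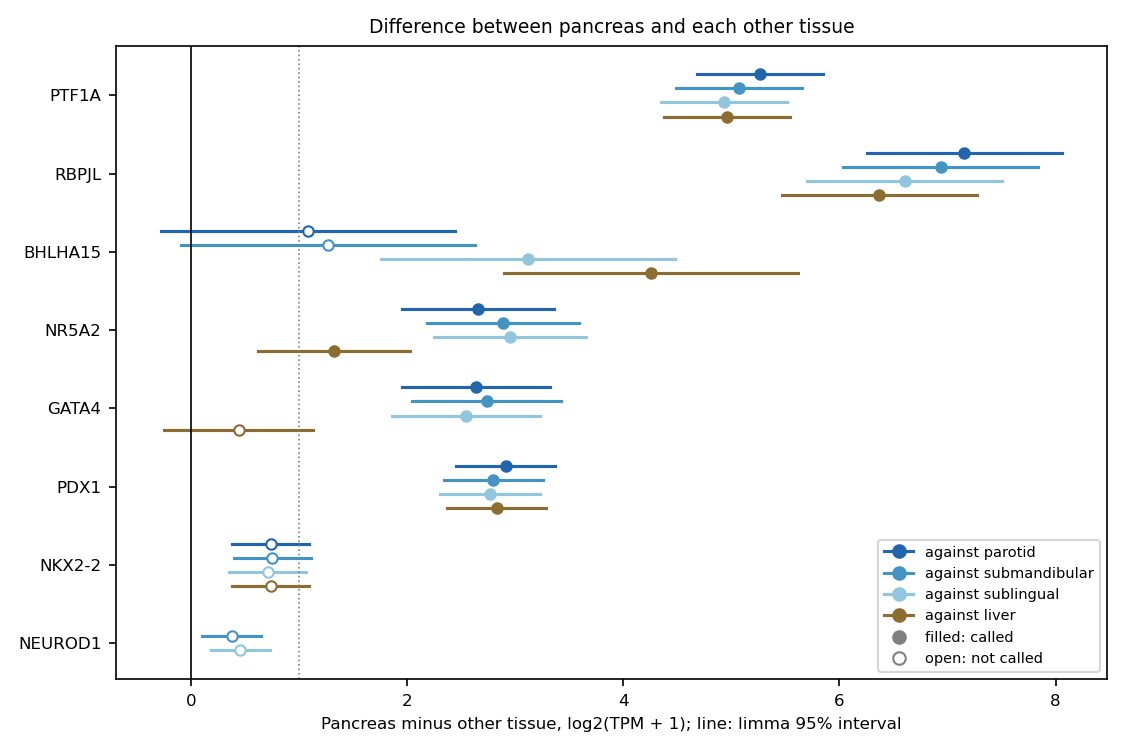
Difference in log2(TPM + 1) between pancreas and each other tissue (horizontal) for each gene, with limma 95% intervals, filled where called and open where not; NKX2-2 and NEUROD1 come from the model without a filter on low values, and NEUROD1 is not drawn against parotid and liver, where it is listed at 0. RBPJL and PTF1A lie farthest from 0, BHLHA15 has the widest intervals, and GATA4 is near 0 against liver.

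The islet hormone level of the pancreas pieces differed widely, and the islet factors did not all move with it. The 5 islet hormone genes INS, GCG, SST, PPY and IAPP summed to 5957, 575, 4873, 747 and 13808 TPM in the pancreas of baboons 1 to 5, almost all of it INS, the insulin gene (5248, 562, 4704, 732 and 13411 TPM). Baboons 2 and 4, with the lowest sums, had the lowest NKX2-2 and NEUROD1 levels, and baboon 5, with the highest sum, had the highest NKX2-2 level. PDX1 was highest in baboon 4 and lowest in baboon 3, so that the ratio of PDX1 to NKX2-2 was 8.56, 94.9, 3.79, 80.9 and 2.99. NEUROD1 was highest in baboon 1, which also had the most GCG, the glucagon gene (280 TPM, against 0.752 to 74.3 TPM in the other 4). Over the same libraries the acinar markers summed to 106202, 82833, 83439, 135850 and 66936 TPM. PDX1, NR5A2 and PTF1A were highest in baboon 4, as this sum was, but BHLHA15 and GATA4 were highest in baboon 1 and RBPJL in baboon 2. No correlation was computed over 5 libraries.

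**Figure D5:**
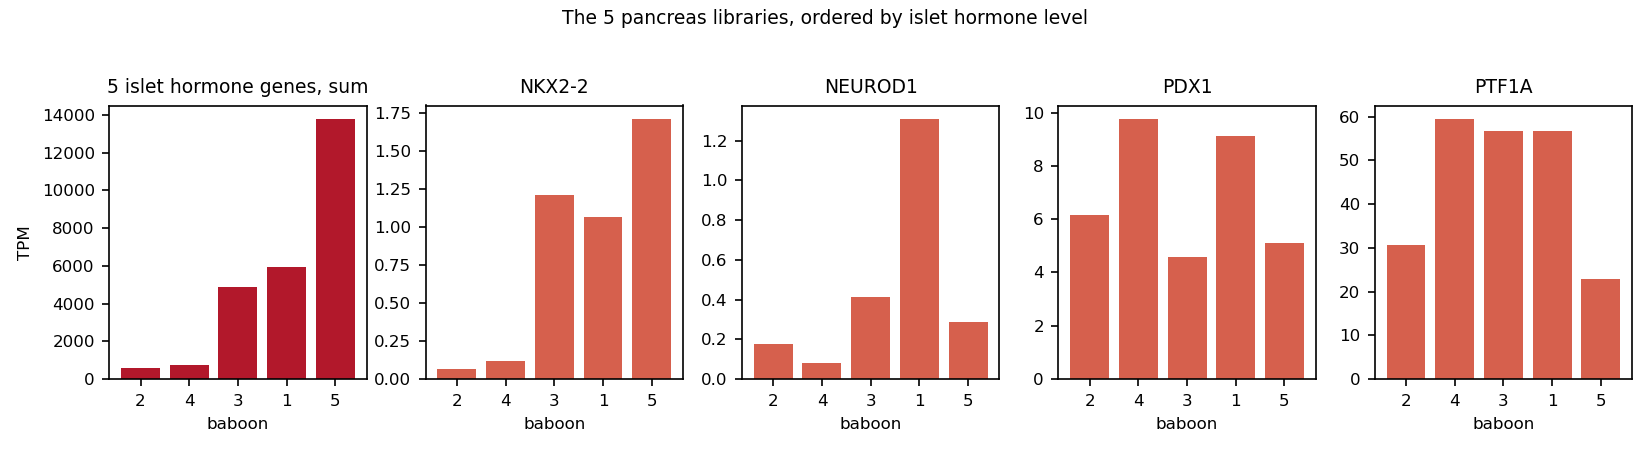
Levels in TPM (linear axes from 0, 1 scale per panel) in the 5 pancreas libraries, ordered by the summed level of 5 islet hormone genes, for that sum, NKX2-2, NEUROD1, PDX1 and PTF1A. NKX2-2 is low in baboons 2 and 4 as the hormones are, whereas PDX1 is highest in baboon 4.

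Among 15 further islet transcription factors, 6 entered the main model, and the other 9 averaged below 1 TPM in every tissue. Against parotid, submandibular, sublingual gland and liver, 2, 3, 2 and 2 of the 6 were higher in pancreas and none was lower. Over all genes tested, 2.4%, 2.81%, 2.49% and 2.86% were higher in pancreas. The genes called (MNX1, NKX6-1 and ISL1) averaged 1 TPM or more in pancreas alone and so entered the model only through it, and their count is no test of the list. MNX1, a homeobox factor of beta cells and of the early pancreas, was at 8.56 ± 3.74 TPM in pancreas, close to PDX1, and at means of 0.0210 to 0.0730 TPM elsewhere. Its differences were 3.12 (SE 0.23), 3.09, 3.07 and 3.14 (limma, adjusted p = 7.27e-10 against parotid). NKX6-1, a beta cell factor, was at 2.49 ± 1.04 TPM and higher in pancreas by 1.67, 1.63, 1.59 and 1.72. ISL1, an endocrine factor of 1.31 ± 1.14 TPM in pancreas, was the third gene higher than in submandibular gland. PAX6, an endocrine and eye factor, was at 3.35 ± 1.88 TPM in pancreas and passed in no comparison, and it had a higher mean in sublingual gland (13.0 ± 17.5 TPM) than in pancreas. After TMM scaling the counts were 5, 5, 4 and 4 of 6, under a scaling that also raised the share of all genes called higher in pancreas, to 6.18%, 6.09%, 7.11% and 7.66%.

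The islet hormone and granule genes gave similar counts. Of 14 listed, 13 were used here and 9 entered the model, of which INS, IAPP and GCG were higher in pancreas than in each gland, and these 3 with PCSK1N were higher than in liver. Among all genes tested, 2.4 to 2.86% were higher in pancreas in the 4 comparisons. INS was higher by 7.45, 6.83, 5.49 and 5.28 and IAPP, the amyloid peptide gene of beta cells, by 5.43, 5.22, 4.34 and 4.42 against parotid, submandibular, sublingual gland and liver. GCG was lost in each of the 4 comparisons without baboon 1 (adjusted p from 0.101 to 0.189) and without baboon 5 (0.107 to 0.225), in all but parotid without baboon 3 (0.0537 to 0.105), and against each gland without the 6 gland libraries that stood apart (0.0933 to 0.136). IAPP was lost against sublingual gland without those 6 libraries (3.87, adjusted p = 0.0569). PCSK1N was lost against liver without baboon 1, 3, 4 or 5 (adjusted p from 0.0607 to 0.184), without the animal term (1.75, adjusted p = 0.0912) and without the filter on low values (adjusted p = 0.0568).

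Of the duct and progenitor factors, SOX9, HES1, HHEX and PROX1 passed in no comparison of pancreas with a gland, but after TMM scaling HES1 passed as higher than in parotid and HHEX as higher than in sublingual gland. ONECUT1 was not used here, and ONECUT2 and GLIS3 were too low to test. Against liver, SOX9 was higher in pancreas and HES1, HHEX and PROX1 were lower. SOX9, a factor of duct cells, was at 5.13 ± 2.49 TPM in pancreas, 0.941 ± 0.343 TPM in liver and means of 4.24 to 6.64 TPM in the glands. HHEX was at 4.95 ± 1.33 TPM in pancreas and 31.9 ± 7.99 TPM in liver, and HES1, a Notch target, at 15.6 ± 8.77 and 63.1 ± 28.1 TPM. The liver calls of SOX9, HHEX and HES1 were each lost without baboon 4 and without at least 1 other animal (adjusted p from 0.0501 to 0.128), and that of HHEX also with a pseudocount of 0.1 (adjusted p = 0.0510).

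All of these values rest on TPM, which shift when a few genes fill a library. The 10 highest genes took 40.3 to 46.7% of TPM in pancreas, 18.0 to 87.7% in parotid, 16.2 to 83.2% in submandibular, 23.4 to 43.5% in sublingual gland and 23.4 to 35.9% in liver. The median difference over all genes tested was -0.45, -0.17, -0.63 and -0.44 for pancreas against parotid, submandibular, sublingual gland and liver, and -0.028, -0.0048, -0.10 and -0.019 after TMM scaling. The share of calls higher in pancreas moved with it, from 26.4% to 61.5% against sublingual gland and from 16.3% to 39.6% against liver. With that scaling PTF1A differed by 5.65, 5.47, 5.47 and 5.46, RBPJL by 7.62, 7.25, 7.33 and 7.01, and PDX1 by 3.27, 3.21, 3.2 and 3.24.

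For each gene, the 3 named genes outside the group with the most similar profile were found by Pearson's r of log2(TPM + 1) over the 25 libraries, among 12886 genes of the main model with a symbol. These r values are descriptions, since tissues and animals are shared by all points. PTF1A was closest to TEX11 (0.994), ERP27 (0.988) and SERPINI2 (0.988), and RBPJL to PNLIPRP1 (0.994), SERPINI2 (0.991) and AQP12B (0.991). TEX11 was also close to PDX1 (0.986), beside CNPY1 (0.987) and KIRREL2 (0.983). The best matches of BHLHA15 were PYCR1 (0.909), EPHA10 (0.895) and TBC1D30 (0.886), a looser fit than for the other acinar factors. NR5A2 was closest to NRG4 (0.947), TPST2 (0.945) and SPINK1 (0.935), and GATA4 to DDC (0.967), HNF4G (0.96) and ENPP1 (0.952). NKX2-2 was closest to RUNDC3A (0.943), ABCC8 (0.937), which encodes the sulfonylurea receptor of beta cells, and UCN3 (0.928), a beta cell hormone gene. For NEUROD1 the closest were CHGB (0.878), GCG (0.861) and UCN3 (0.836).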

How the data were processed

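The deposited table holds TPM per gene for the 25 libraries, and its name and the submitters' processing notes name kallisto. The version, index and genome build are not given in the sources used here, so no coordinates or sequences are printed. TPM keep no read depth, so precision rests on the 5 animals, and no counting interval is given. The 8 genes and the gene lists were chosen with earlier results of these data known. All 21287 symbols matched the RefSeq gene table (Panubis1.0), used for names only.

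Genes that averaged 1 TPM or more in any tissue (14991) were kept. Their log2(TPM + 1) values in the 25 libraries entered 1 limma model (version 3.58.1, R 4.3.3, eBayes with trend) of tissue plus animal, and p-values were adjusted by Benjamini-Hochberg over those genes in each comparison. The labels give the animal of each library. Deviations from tissue means had a mean correlation of 0.161 over 50 same-animal pairs and -0.0354 over 200 others. The fitting code was tested on simulated data. Members were all named. From each list the 4 genes with the highest pancreas mean and those called against the majority were named; other genes (HNF4A, ISL1, RAB3D, PROX1, DERL3, TNFRSF17 and AQP5) were added after their values were seen. Some genes of the lists enter the counts but are not reported here by name. Alternatives were another pseudocount, scaling, filters, no animal term, only the tissues compared, and leaving out animals. Leaving out the 6 gland libraries that stood apart, or those low in AQP5, was chosen after seeing the data. So was dropping the filter together with a pseudocount of 0.1.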

Additional observations from a re-analysis of the deposited data

Results flagged for a closer look

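Of the 38 groups of 5 libraries with any value above 0, 8 held a library whose gap to the next exceeded 0.71 of the group's range. That limit is meant for independent, normally distributed values, of which about 1 group in 20 would pass. These TPM are often near 0, a group with 4 libraries at 0 passes by construction, and the groups share libraries. The 8 can therefore not be set against that rate. In 5 of the 8 the library was submandibular 2. That library had 13.1 TPM of RBPJL (next highest in its group 2.80), 1.58 TPM of NR5A2 (next 0.271), 0.375 TPM of PDX1 (next 0.0721), 0.0782 TPM of NKX2-2 (the other 4 listed at 0) and 0.376 TPM of NEUROD1 (next 0.0229). It also had the highest acinar marker sum outside the pancreas (1927 TPM) and the highest enzyme share (2.33%), and their part in these values was not tested.

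BHLHA15 in sublingual 5 was at 38.5 TPM, with the next library at 7.08 TPM. GATA4 in sublingual 3 was at 0.767 TPM, with the next at 0.136 TPM. NEUROD1 in the pancreas of baboon 1 was at 1.31 TPM, with the next at 0.415 TPM.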

How the results depend on the processing

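The numbers of the 8 genes called against parotid, submandibular, sublingual gland and liver were 5, 5, 6 and 5, and were 5, 5, 5 to 6 and 4 to 6 in the alternatives that changed 1 choice. Without the filter and with a pseudocount of 0.1 they were 7, 7, 8 and 6, since NKX2-2 and NEUROD1 passed there, NEUROD1 also against parotid and liver, where it is listed at 0. Without the replicate block (the animal term) these counts were the same, no call of the 8 genes changed, and 505, 527, 1087 and 2372 of all genes were called in place of 572, 611, 1419 and 2623. Counts over all genes moved more. Against parotid they were 1263 with TMM scaling, 1255 with median-of-ratios scaling and 1018 without gland libraries low in AQP5. Against submandibular gland they were 1308, 1314 and 1198 in the same order, and 997 without the 6 gland libraries that stood apart. Against sublingual gland 4600 were called without libraries low in AQP5, and against liver 4030, or 4313 with only those 2 tissues fitted. With each animal left out in turn the counts ranged from 315 to 624, 326 to 682, 393 to 3011 and 1722 to 2678; the lowest came without baboon 3, 3, 1 and 3, and the highest against sublingual gland without baboon 2. The BHLHA15 difference between parotid and submandibular gland (0.19) turned to -0.067 (TMM) and -0.079 (median-of-ratios), and ranged from -0.037 (without baboon 5) to 0.479 (without baboon 2) with 1 animal left out. The cause of these shifts was not tested. With depth unknown, the lowest level that can be told from 0 is unknown too.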
